A study of Mus musculus with 6 samples.

Results

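The genes described here are 35 genes of the antioxidant program controlled by the transcription factor NRF2, with the thioredoxin, peroxiredoxin and glutathione systems, the ferritins and the metallothioneins. They were taken by symbol from a fixed list of these pathways, and each symbol matched 1 of the 57180 gene identifiers in the files. All 35 passed the filter on low counts, which left 17639 genes to be tested. The libraries are RNA-seq of primary corneal endothelial cells, a monolayer that keeps the cornea clear by removing fluid, and the mice had 2 genotypes. The 3 libraries of the Col8a2 group came from Col8a2Q455K/Q455K mice, homozygous for a mutant chain of the collagen of Descemet membrane and used as a model of Fuchs endothelial corneal dystrophy (FECD). The 3 libraries of the Tcf4+/- group came from mice that carry the same homozygous Col8a2 allele and have lost 1 copy of Tcf4, which encodes a basic helix-loop-helix transcription factor, so that there is no wild-type group and both groups share the collagen mutation. No treatment was given. The labels used here do not state the age of the mice, the design of the Tcf4 allele or whether corneas were pooled. The p-values therefore measure the spread between these libraries, part of which may be technical.

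Cells meet oxidants and reactive metals with a linked set of proteins. NRF2, the product of Nfe2l2, is bound by KEAP1 and degraded until oxidants or electrophiles modify KEAP1. It then enters the nucleus, pairs with a small MAF protein and binds antioxidant response elements near genes for glutathione synthesis, thioredoxin reduction, NADPH supply and iron handling. Peroxiredoxins break down peroxides with electrons from thioredoxin, ferritin stores iron in a form that does not feed radical chemistry, and metallothioneins bind zinc and copper through cysteines. The corneal endothelium is exposed to light and works at a high metabolic rate with little cell division, and oxidative damage and altered NRF2 signalling are known features of FECD.

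Several facts of the libraries touch the values below. Total estimated counts ran from 30344161 to 54265479. In CPM (library-scaled counts, by TMM), Tcf4 stood at 374 to 599 in the libraries labelled Tcf4+/- and at 313 to 470 in the Col8a2 libraries (log2 fold change 0.22, standard error 0.33). A lower Tcf4 level was not seen, the deleted part of Tcf4 is not stated here, and the groups are called by their labels only. Markers of the corneal endothelium were present in all libraries (14 of 14 markers detected, summed level 18800 to 28910 CPM in the Col8a2 group and 13780 to 29360 CPM in the Tcf4+/- group), lowest in Tcf4+/- replicate 3. Of the 14, 11 were fitted lower and 3 higher in the Tcf4+/- group (median log2 fold change -0.12). Their mean log2 CPM was 8.475 in Tcf4+/- replicate 3 and 9.305 to 9.946 in the other libraries. Lens markers summed to 4198 and 11170 CPM in Tcf4+/- replicates 2 and 3 and to 33.9 to 628 CPM in the other libraries. Of 13 lens markers 12 were tested, all fitted higher in the Tcf4+/- group (8 with an unadjusted edgeR p under 0.05, median log2 fold change 4.15). Lim2, a lens fibre membrane gene, was not tested and was at 0.345 CPM or less in every library. The same replicates had 15.6% and 15.8% of all TPM (a level scaled to transcript length and library) in mitochondrial tRNA genes, against 0% elsewhere, which by arithmetic lowers the TPM of every other gene there. Markers of other tissues were also present, and some lists were fitted higher in the Tcf4+/- group. Erythroid markers ran from 533 to 6128 CPM (5 of 5 tested fitted higher, 3 with an unadjusted p under 0.05, median log2 fold change 1.56), stromal keratocyte markers from 5732 to 18610 CPM (8 of 8 higher, 0.39) and vascular endothelium markers from 20.8 to 144 CPM (5 of 6 higher, 1.16). Corneal epithelium markers ran from 4096 to 12350 CPM (4 of 8 higher, 0.01), myeloid markers from 256 to 922 CPM (4 of 8 higher, 0.09) and pigment cell markers from 342 to 1509 CPM (4 of 6 higher, 0.13). None of these markers passed after adjustment with edgeR. In bulk libraries, fewer cells of a type and less RNA per cell cannot be told apart.

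No member passed the test between the groups. With edgeR's quasi-likelihood test, 0 of 35 members had a Benjamini-Hochberg adjusted p of at most 0.05, as did 0% of all genes tested, and the adjusted p was 0.99988 for every member. DESeq2, limma voom and limma on TPM also called 0 members. Over all genes DESeq2 called 107, of which 76 were higher in the Tcf4+/- group, and none was a member. At an unadjusted p under 0.05 there was 1 member, Txnip, or 2.86% of members against 2.42% of all genes tested. The 3 libraries of one group lay wholly above those of the other, on the CPM scale, for 2 members, Txnip and Ftl1, or 5.71% against 8.10% of all genes. Of the 35, 20 were fitted lower and 15 higher in the Tcf4+/- group, or 57.1% lower against 49.9% of all genes tested, and the median log2 fold change was -0.07 against 0.00 for all genes. Among the 7244 genes of at least 10 TPM, 54.1% were fitted lower, with a median of -0.03. These shares give nothing that sets the members apart from other genes. The lean to lower values rests on single libraries: 16 of 35 were fitted lower without Col8a2 replicate 1 (median 0.01) and 16 without Tcf4+/- replicate 2 (median 0.04), while on the TPM scale, where the median of all genes was itself -0.15, 30 of 35 were lower (median -0.37). The 95% interval of the log2 fold change lay inside -1 to 1, so left out a doubling or a halving, for 15 of 35 members. The same held for 44.7% of the genes of at least 10 TPM. For the other 20 members the interval reached past -1 or 1, so a change of that size was not excluded for them.

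**Figure D1:**
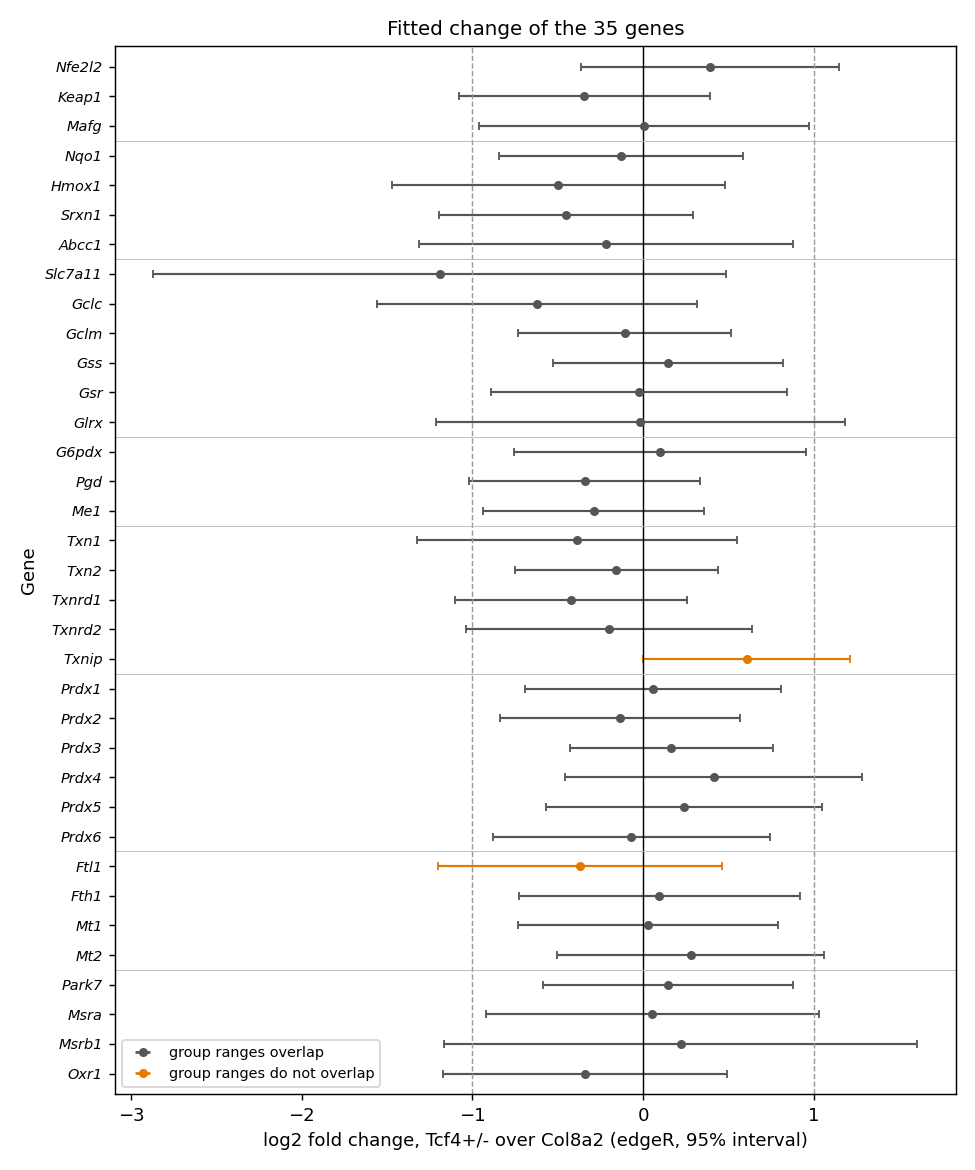
Fitted log2 fold change (x axis, Tcf4+/- over Col8a2) of the 35 genes (y axis, grouped by role) with 95% intervals from edgeR, dashed lines at -1 and 1, and orange for the 2 genes whose CPM ranges do not overlap. All intervals but that of Txnip, which starts at 0.001, take in 0.

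Most members were well expressed, and all but Slc7a11, at percentile 26.7 of genes tested by mean TPM, lay at percentile 51.5 or above. Per length, Ftl1 and Fth1 were the most abundant, at means of 6482 and 6337 TPM over all 6 libraries, and both lay above 99.9% of genes tested. Slc7a11 was the least abundant at 1.86 TPM, with 45 counts in its lowest library. Between these, 12 members had a mean of at least 100 TPM (both ferritins, both metallothioneins, Prdx1, Prdx2, Prdx5, Prdx6, Txn1, Txn2, Txnip and Park7) and 5 were under 10 TPM (Mafg, Abcc1, Slc7a11, Gclc and Gsr). Together the 35 genes took 1.75% to 2.45% of all TPM in the libraries without mitochondrial tRNA signal, and 1.44% and 1.54% in Tcf4+/- replicates 2 and 3, or 1.71% and 1.83% when those tRNA genes are set aside. The ferritins alone made up 1.023% to 1.897%. The highest library stood a median of 2.07-fold over the lowest across members, against 2.16-fold across the 7244 genes of at least 10 TPM. Gsr and Txn2 were the steadiest, at 1.34-fold and 1.35-fold, and Slc7a11 varied by 14.8-fold.

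**Figure D2:**
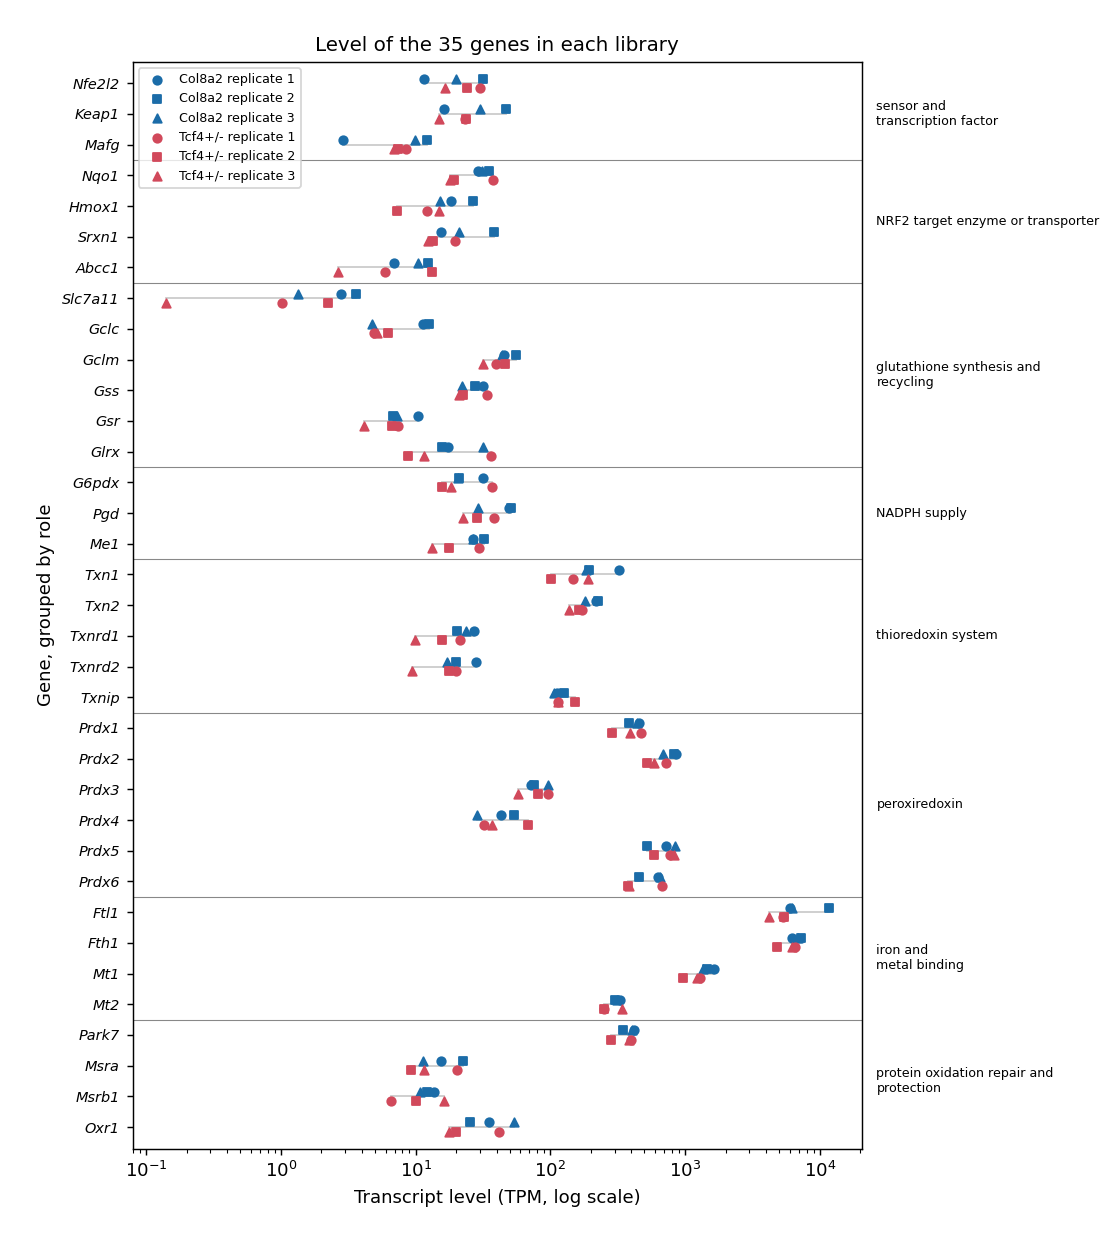
Level of each of the 35 genes (x axis, TPM on a log scale; y axis, genes grouped by role) in the 3 Col8a2 libraries (blue) and the 3 Tcf4+/- libraries (red), with 1 symbol per replicate and grey lines from lowest to highest. The ferritins lie farthest right in every library, and Slc7a11 reaches down to 0.14 TPM in Tcf4+/- replicate 3.

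Promoter windows show which members carry the letters that NRF2 and its small MAF partner are known to read. RefSeq windows of build GRCm38.p6, from 250 bases before to 50 bases after a gene's start, were held for 28 of the 35 members. The core of the antioxidant response element was searched as TGACNNNGC on both strands and lay in a window of 10 members, or 35.7% of those with a window, against 14.0% of the 27025 genes in the table. In Srxn1 and Pgd the match lay after the start, and in Me1 it ran across the start. The 7 members with a match before the start are shown because they include the factor itself, its MAF partner and members of several target branches. Each stretch is written 5′ to 3′ on the gene's strand, with the match in capitals on whichever strand it was read.
Nfe2l2, chr2:75704880-75704913, minus strand: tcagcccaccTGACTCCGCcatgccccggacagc
Mafg, chr11:120633746-120633784, minus strand: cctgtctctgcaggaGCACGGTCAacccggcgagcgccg
Gclm, chr3:122245408-122245446, plus strand: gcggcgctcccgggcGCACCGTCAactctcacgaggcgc
G6pdx, chrX:74428914-74428952, minus strand: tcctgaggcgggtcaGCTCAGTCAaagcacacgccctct
Txnrd1, chr10:82859099-82859137, plus strand: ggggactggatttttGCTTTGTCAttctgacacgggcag
Prdx1, chr4:116685451-116685489, plus strand: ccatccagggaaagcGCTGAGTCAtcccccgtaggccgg
Mt2, chr8:94172524-94172562, plus strand: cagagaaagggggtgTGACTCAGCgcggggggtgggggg
In Prdx1 and Mt2 the match is the same 9 letters, TGACTCAGC, read from opposite strands, and the match of Me1 has these letters as well. Members with a match in the window had log2 fold changes from -0.45 to 0.39 with a median of -0.05 (5 fitted lower, 5 higher). The 18 members whose window held no match ran from -1.19 to 0.61 with a median of 0.01 (9 fitted lower, 9 higher). The 7 members for which no window was held ran from -0.62 to 0.055 with a median of -0.22 (6 fitted lower, 1 higher). A match is a string of letters, not a binding site, and no match says nothing beyond the window.

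Nfe2l2 and Keap1, the factor and its inhibitor, each overlapped between the groups, while their ratio within a library did not. Nfe2l2 stood at 25.7, 56.4 and 41.2 CPM in the Col8a2 libraries and at 62.7, 52.5 and 46.5 CPM in the Tcf4+/- libraries. Its lowest library was Col8a2 replicate 1, and the log2 fold change was 0.39 (standard error 0.34). Keap1, which targets NRF2 for degradation, stood at 47.5, 106 and 81.0 CPM in the Col8a2 libraries and at 63.8, 68.2 and 52.3 CPM in the Tcf4+/- libraries. Here too Col8a2 replicate 1 was lowest and replicate 2 highest, with a log2 fold change of -0.34 (standard error 0.33). Both genes thus had the same order across the Col8a2 libraries, and both fold changes rest on those libraries. Without Col8a2 replicate 1 the log2 fold change of Nfe2l2 was 0.14, and without Col8a2 replicate 2 it was 0.69. For Keap1 these values were -0.60 and -0.06. With the lens level as a covariate the log2 fold change was 0.85 for Nfe2l2 and 0.03 for Keap1. The ratio of Nfe2l2 to Keap1 in TPM ran 0.712, 0.678 and 0.667 in the Col8a2 libraries, a mean of 0.686 ± 0.024 (SD, n = 3). It was 1.29, 1.005 and 1.10 in the Tcf4+/- libraries, a mean of 1.13 ± 0.147 (SD, n = 3). All Tcf4+/- libraries lay above all Col8a2 libraries, and the difference of the log2 ratios was 0.72. The exact two-sided permutation test over libraries gave p = 0.1, the smallest that 3 against 3 allows, and 0.4 after adjustment over the 4 ratios compared, so the difference did not pass. Within the Tcf4+/- group the ratio was highest in replicate 1, where summed lens markers stood at 91.6 CPM and summed erythroid markers at 6128 CPM. In Tcf4+/- replicates 2 and 3 lens markers stood at 4198 and 11170 CPM and erythroid markers at 1362 and 2943 CPM. The part of other tissues in this ratio was not tested.

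**Figure D3:**
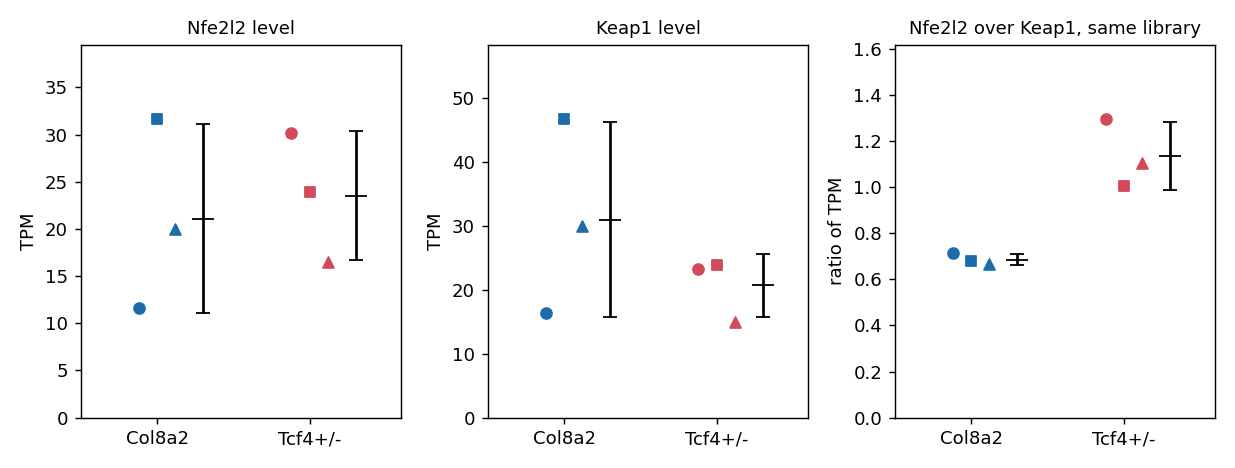
Nfe2l2 level, Keap1 level (y axes, TPM) and their ratio within each library (y axis, ratio of TPM) in the 3 Col8a2 (blue) and 3 Tcf4+/- (red) libraries, with circle, square and triangle for replicates 1 to 3 and black bars for mean ± SD. The levels overlap, and the ratio sits at 0.667 to 0.712 in one group and 1.005 to 1.29 in the other.

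Mafg, a small MAF partner of NRF2, stood at 13.5, 45.1 and 36.9 CPM in the Col8a2 libraries and at 35.3, 31.4 and 29.3 CPM in the Tcf4+/- libraries. Its log2 fold change was 0.01 (standard error 0.43), and Col8a2 replicate 1 was again the lowest library. Mafg shares exon positions with Sirt7 on the same strand, which at 30.5 TPM is more abundant than Mafg at 7.97 TPM, so part of its count may belong to that gene. Among 16 other regulators of the pathway, 15 were tested and 0 passed after adjustment with edgeR. Of these, 10 were fitted lower and 5 higher (median log2 fold change -0.21). Between the groups 2 of the 15 did not overlap, where 8.10% of all genes tested did not. Mafk, another small MAF, stood at 47.1, 27.5 and 29.8 CPM against 26.4, 20.5 and 12.2 CPM, without overlap and with a log2 fold change of -0.82. Btrc, a ubiquitin ligase adaptor that also acts on NRF2, had -0.64, and Rbx1, a subunit of the KEAP1 ligase and the most abundant of these, had 0.03.

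The 4 members grouped as NRF2 target enzymes and transporters were all fitted lower, and none passed. The shared direction was not stable: with the lens level as a covariate Nqo1 had 0.10, Srxn1 0.003 and Abcc1 0.01, Nqo1 had 0.05 without Tcf4+/- replicate 2, and Abcc1 had 0.17 without Tcf4+/- replicate 3. Nqo1, a quinone reductase, stood at 38.7, 36.7 and 37.8 CPM in the Col8a2 libraries and at 46.9, 25.7 and 30.8 CPM in the Tcf4+/- libraries. The Col8a2 values lay close together, inside the Tcf4+/- range, and the log2 fold change was -0.13 (standard error 0.32). Srxn1, sulfiredoxin, which restores over-oxidised peroxiredoxins, stood at 38.5, 78.3 and 48.6 CPM and at 46.9, 33.8 and 40.2 CPM. Its highest library was Col8a2 replicate 2, the ranges overlapped, and the log2 fold change was -0.45 (standard error 0.33). Without Col8a2 replicate 2 the log2 fold change of Srxn1 was -0.11. Hmox1, heme oxygenase 1, had -0.50 (standard error 0.44), at 24.0, 27.7 and 18.2 CPM against 14.8, 9.54 and 25.3 CPM. Without Tcf4+/- replicate 2 the log2 fold change of Hmox1 was -0.20, and without Tcf4+/- replicate 3 it was -0.95. Hmox1 is abundant in macrophages, and summed myeloid markers stood at 377, 922 and 256 CPM in the Col8a2 libraries and at 418, 434 and 646 CPM in the Tcf4+/- libraries. Both were highest in Col8a2 replicate 2 and next in Tcf4+/- replicate 3, but Hmox1 was lowest in Tcf4+/- replicate 2 and the markers in Col8a2 replicate 3. The part of myeloid cells in Hmox1 was not tested. Abcc1, an exporter of glutathione conjugates, ran from 14.0 CPM in Tcf4+/- replicate 3 to 63.6 CPM in Tcf4+/- replicate 2, so the spread within that group covered all Col8a2 libraries. Of the 22 other NRF2 targets listed, 21 were tested and 0 passed, with 14 fitted lower and 7 higher (median -0.05). The smallest p among them belonged to Akr1b8, an aldo-keto reductase, at 10.7, 5.35 and 2.63 CPM against 0.593, 1.16 and 0.0675 CPM (log2 fold change -3.34, standard error 1.19). Next was Abcc4, another exporter, at 17.9, 25.2 and 14.96 CPM against 7.90, 12.5 and 4.49 CPM (-1.22, standard error 0.50). Neither gene overlapped between the groups, and neither passed after adjustment. In the whole list 6 of 21 genes did not overlap and 2 had an unadjusted p under 0.05, where 8.10% and 2.42% of all genes did. Gpx4, the lipid peroxidase, was the most abundant at 744 TPM and had 0.06.

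Glutathione genes showed their widest spread at the entry of cystine. Slc7a11, the cystine transporter that supplies cysteine for glutathione, stood at 22.5, 22.2 and 9.11 CPM in the Col8a2 libraries and at 6.86, 15.1 and 1.52 CPM in the Tcf4+/- libraries. The log2 fold change was -1.19 (standard error 0.75) and an interval from -2.87 to 0.49, and Tcf4+/- replicate 2 lay above Col8a2 replicate 3. Without Tcf4+/- replicate 3 the log2 fold change was -0.71, and without Tcf4+/- replicate 2 it was -2.09. Gclc, the catalytic subunit of the enzyme that makes the first step of glutathione synthesis, stood at 35.7, 32.0 and 13.9 CPM and at 14.8, 19.2 and 19.0 CPM. Col8a2 replicates 1 and 2 were high, and Col8a2 replicate 3 was the lowest library of all, with a log2 fold change of -0.62 (standard error 0.42). Without Col8a2 replicate 3 it was -0.94, and without Col8a2 replicate 1 it was -0.38. Gclm, the modifier subunit, was the most abundant gene of the branch at 43.7 TPM and varied little, at 45.6, 53.0 and 44.7 CPM against 52.1, 45.3 and 35.7 CPM (-0.11, standard error 0.28). The ratio of Gclc to Gclm in TPM was 0.251, 0.227 and 0.108 in Col8a2 replicates, against 0.124, 0.134 and 0.163 in Tcf4+/- replicates. The ranges overlapped, and the exact two-sided permutation test gave p = 0.4. Gss, glutathione synthetase, had a log2 fold change of 0.15, Gsr, which reduces oxidised glutathione, -0.02, and Glrx, a glutaredoxin that removes glutathione from proteins, -0.02. Gsr stood between 12.8 and 17.2 CPM in all libraries, and Glrx between 9.98 and 38.2 CPM, both ends of that range in the Tcf4+/- group.

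Of 20 other genes of glutathione turnover, 0 passed, with 13 fitted lower and 7 higher (median -0.09). Of the 20, 1 had an unadjusted p under 0.05 and 1 did not overlap, where 2.42% and 8.10% of all genes tested did so. Slc1a4, a transporter of neutral amino acids, stood at 28.0, 72.3 and 86.5 CPM against 33.4, 32.3 and 20.0 CPM (log2 fold change -1.12, standard error 0.43). Ggt7, of the gamma-glutamyltransferase family, stood at 8.39, 13.2 and 3.04 CPM against 18.0, 17.2 and 15.2 CPM without overlap (1.03, standard error 0.57). Slc3a2, the heavy chain that holds Slc7a11 at the membrane, was the most abundant at 360 TPM. It had -0.41, with its lowest level, 175 CPM, in Tcf4+/- replicate 3, where Slc7a11 was lowest as well. Summed corneal endothelium markers were also lowest in that library, at 13780 CPM against 18800 to 29360 CPM in the others. Of those markers only Car3, Ptgds, Slc4a11 and Foxc1 were not lowest there. The part of cell content in these 2 genes was not tested.

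NADPH, the electron source for both glutathione and thioredoxin, is supplied by the pentose phosphate pathway and malic enzyme. Pgd, 6-phosphogluconate dehydrogenase, was the most abundant of the 3 members at 36.5 TPM and stood at 98.4, 80.3 and 52.7 CPM in the Col8a2 libraries and at 71.5, 55.9 and 55.3 CPM in the Tcf4+/- libraries. The log2 fold change was -0.34 (standard error 0.30), and the ranges overlapped. Me1, malic enzyme, lay within 74.8 to 78.9 CPM in the Col8a2 group but at 85.3, 52.8 and 50.1 CPM in the Tcf4+/- group, where replicates 2 and 3 were below and replicate 1 above (-0.29, standard error 0.29). G6pdx, which opens the pathway, stood at 77.1, 40.7 and 45.9 CPM against 84.2, 35.7 and 55.6 CPM (0.10, standard error 0.38). Its 3 highest libraries, Tcf4+/- replicate 1, Col8a2 replicate 1 and Tcf4+/- replicate 3, were also those with the highest summed corneal epithelium markers, 11560, 12350 and 9280 CPM, and its lowest, Tcf4+/- replicate 2, had the lowest, 4096 CPM. Aldh3a1 and Krt12 were the largest parts of that sum. Singly, Krt5, Pax6 and Aldh3a1 had the same 3 highest libraries and the same lowest. Krt12, Krt14, Trp63, Cdh1 and Krt6a did not, and Cdh1 was highest in Tcf4+/- replicate 2, at 18.4 CPM. The part of epithelial RNA in G6pdx was not tested. Of 15 other NADPH genes, 0 passed, with 8 fitted lower and 7 higher (median -0.05). Tkt, transketolase, a gene of the cornea at 1080 TPM, had -0.24, and Nadk2 and Rpe, those of smallest p, had 0.59 and -0.38.

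In the thioredoxin system Txnip was the only one of 5 members fitted higher, and no test compared it with the others. Txnip, which binds reduced thioredoxin and blocks it and also restrains glucose uptake, stood at 108, 96.6 and 125 CPM in the Col8a2 libraries (mean 110 ± 14.3, SD, n = 3). It stood at 138, 188 and 177 CPM in the Tcf4+/- libraries (mean 168 ± 26.3, SD, n = 3), all above the Col8a2 group. The log2 fold change was 0.61 (standard error 0.27) and an interval from 0.001 to 1.21, a fold of 1.52. The unadjusted edgeR p was 0.0498 and the adjusted p 0.99988, so Txnip did not pass. Tcf4+/- replicates 2 and 3, the lens-rich libraries, held the 2 highest values. With only replicate 1 left in that group the log2 fold change was 0.32, and with the lens level as a covariate it was 0.37. On the TPM scale Txnip stood at 112, 127 and 107 TPM against 114, 152 and 114 TPM, where the ranges overlapped and the log2 difference was 0.12. Gm15441, an antisense gene over Txnip, was at 1.66 TPM.

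The other 4 thioredoxin genes overlapped between the groups. Txn1, cytosolic thioredoxin, was the most abundant at 190 TPM, at 270, 126 and 139 CPM against 113, 86.6 and 209 CPM. Its log2 fold change was -0.39 (standard error 0.42). Without Col8a2 replicate 1, its highest library, it was 0.04. Txn2, the mitochondrial thioredoxin, was almost as abundant and far steadier, at 232, 188 and 179 CPM against 172, 176 and 189 CPM (-0.16, standard error 0.27). The reductases Txnrd1 and Txnrd2, which return electrons from NADPH to thioredoxin, had -0.42 and -0.20 (standard errors 0.30 and 0.38). Of 17 relatives of this family, 0 passed, with 9 fitted lower and 8 higher (median -0.10). Of the 17, 1 had an unadjusted p under 0.05 and 2 did not overlap, where 2.42% and 8.10% of all genes tested did so. Nxnl1, a thioredoxin-like gene known from photoreceptors, stood at 18.5, 13.6 and 12.7 CPM against 31.2, 21.6 and 42.97 CPM without overlap (1.10, standard error 0.38). Sesn2, a stress-induced sestrin, had -1.01, and Selenow, a small selenoprotein, was the most abundant at 518 TPM and had 0.29.

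**Figure D4:**
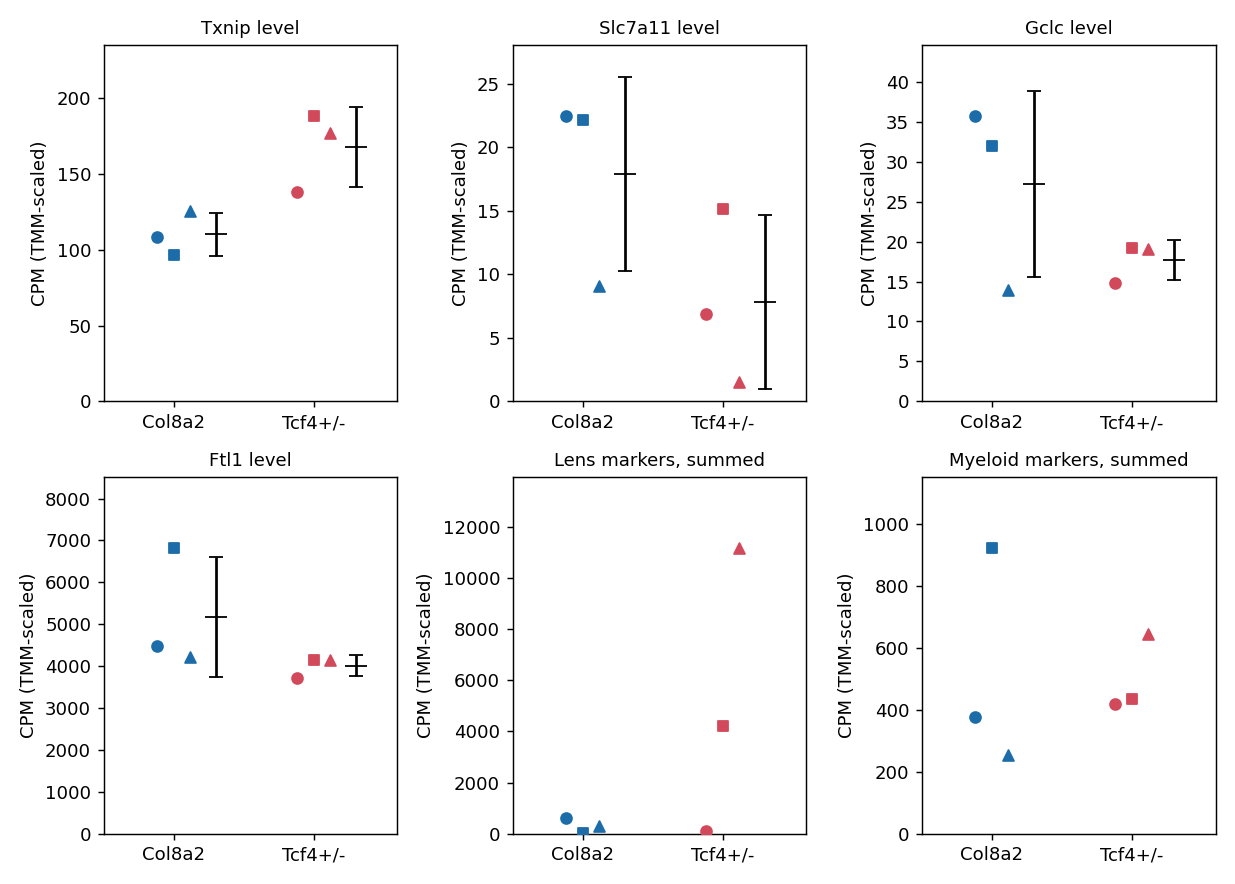
Levels of Txnip, Slc7a11, Gclc and Ftl1 and summed levels of lens and myeloid markers (y axes, TMM-scaled CPM) in the 3 Col8a2 (blue) and 3 Tcf4+/- (red) libraries, with circle, square and triangle for replicates 1 to 3 and black bars for mean ± SD on the single genes. Txnip does not overlap between the groups. Ftl1 and the myeloid markers are both highest in Col8a2 replicate 2, while their lowest libraries differ.

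Of the peroxiredoxins, Prdx1, Prdx2, Prdx5 and Prdx6 lay at percentile 98.3 or above of genes tested by mean TPM, and no peroxiredoxin passed. The 95% intervals of Prdx4 and Prdx5 reached up to 1.28 and 1.05, so a doubling was not excluded for them. Prdx5, Prdx2, Prdx6 and Prdx1 had means of 717, 703, 527 and 405 TPM, and the mitochondrial Prdx3 and the endoplasmic reticulum member Prdx4 had 79.9 and 43.8 TPM. Prdx5, found in mitochondria and peroxisomes, stood at 601, 373 and 618 CPM in the Col8a2 libraries and at 569, 476 and 835 CPM in the Tcf4+/- libraries. The ranges overlapped, with a log2 fold change of 0.24 (standard error 0.36). Prdx4 stood at 33.5, 32.5 and 19.9 CPM against 23.1, 53.8 and 37.4 CPM, and its 2 highest values came from Tcf4+/- replicates 2 and 3 (0.41, standard error 0.39). With only replicate 1 left in the Tcf4+/- group its log2 fold change was -0.32, so its direction rests on those libraries. Prdx1 and Prdx2, the cytosolic enzymes, had 0.06 and -0.13, Prdx6, which uses glutathione, -0.07 and Prdx3 0.17. Replicate 2 of each group held the lowest level of that group for Prdx1, Prdx5 and Prdx6. Those replicates also held the lowest summed corneal epithelium markers of their groups, 5750 and 4096 CPM. Singly, all of these markers but Krt14 and Cdh1 were lowest there in both groups. The part of epithelial RNA in these 3 peroxiredoxins was not tested. Prdx2 is a major protein of red cells. It stood at 511, 391 and 391 CPM in the Col8a2 replicates and at 445, 301 and 432 CPM in the Tcf4+/- replicates, beside summed erythroid markers of 1296, 533 and 1968 CPM and of 6128, 1362 and 2943 CPM. The part of red cells in Prdx2 was not tested.

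Ferritin genes were the most abundant members, and the light chain did not overlap between the groups on the CPM scale. Ftl1, the light chain, stood at 4485, 6814 and 4215 CPM in the Col8a2 libraries and at 3718, 4143 and 4154 CPM in the Tcf4+/- libraries. The gap between the groups was narrow, and Col8a2 replicate 2 stood well above the rest. The log2 fold change was -0.37 (standard error 0.37), and without Col8a2 replicate 2 it was -0.12. That library had the highest summed myeloid markers, 922 CPM against 256 to 646 CPM in the others, with Lyz2 alone at 657 CPM. Cd68, Csf1r, Lyz2 and Tyrobp were highest there, while Ptprc, Adgre1, Cd74 and Fcer1g were not. The other libraries did not share an order. Summed markers were next in Tcf4+/- replicate 3, with Ftl1 at 4154 CPM, and lowest in Col8a2 replicate 3, with Ftl1 at 4215 CPM. Ftl1 was lowest in Tcf4+/- replicate 1. The part of myeloid cells in Ftl1 was not tested. Fth1, the heavy chain that oxidises iron on entry, stood at 4417, 4019 and 4358 CPM against 4241, 3548 and 5883 CPM (0.10, standard error 0.37). The ratio of Ftl1 to Fth1 in TPM was 0.959, 1.597 and 0.910 in Col8a2 replicates, against 0.825, 1.12 and 0.674 in Tcf4+/- replicates. The difference of the log2 ratios was -0.39 (exact two-sided permutation p = 0.4). A gene named as a copy of it, Ftl1-ps1, was given 157 TPM, and reads of near-identical genes may have been divided between them. Of 22 genes of iron uptake, export and heme, 20 were tested and 0 passed, with 14 fitted lower and 6 higher (median -0.18). Trf, transferrin, was the most abundant at 307 TPM and had -0.29, and Flvcr1, a heme exporter, and Fbxl5, an iron sensor, had -0.99 and 0.49. Ftmt, the mitochondrial ferritin, had 0 counts in every library.

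The metallothioneins overlapped between the groups. Mt1 stood at 557, 372 and 399 CPM against 387, 368 and 603 CPM, and Mt2 at 98.2, 67.3 and 80.1 CPM against 63.7, 85.0 and 149 CPM. Their log2 fold changes were 0.03 and 0.28 (standard errors 0.34 and 0.35), and Tcf4+/- replicate 3 was the highest library for both. The ratio of Mt1 to Mt2 in TPM was 5.03, 4.81 and 4.36 in Col8a2 replicates, against 5.17, 3.86 and 3.62 in Tcf4+/- replicates (exact two-sided permutation p = 0.4). The metal response element, to which the zinc-sensing factor MTF1 binds, was searched as TGCACNC and TGCGCNC on both strands. It lay in a window of 11 members, Mt1 and Mt2 among them, or 39.3% against 28.2% of all genes in the table. Of the other 11 genes of metal response and methionine sulfoxide repair, 9 were tested and 0 passed (median -0.07). Mt3, the metallothionein known from brain, was also highest in Tcf4+/- replicate 3, at 47.5 CPM against 18.1 to 27.1 CPM in the other libraries. Atox1, a copper chaperone, was the most abundant of them at 570 TPM and highest in the same library, at 378 CPM against 102 to 224 CPM.

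The last members repair or shield oxidised proteins. Park7, or DJ-1, a protein that senses oxidation at a cysteine, stood at 288, 183 and 250 CPM in the Col8a2 libraries and at 248, 201 and 349 CPM in the Tcf4+/- libraries. Its ranges overlapped, with a log2 fold change of 0.15 (standard error 0.33). Oxr1, a gene of oxidation resistance, stood at 132, 79.4 and 168 CPM against 142, 69.9 and 87.5 CPM (-0.34, standard error 0.37). Its lowest library in each group was replicate 2. Msra and Msrb1, which reduce the S and R forms of oxidised methionine, had 0.06 and 0.22 (standard errors 0.44 and 0.62). Msrb1 ran from 4.41 CPM in Tcf4+/- replicate 1 to 15.1 CPM in Tcf4+/- replicate 3, so both ends of its range lay in the same group.

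The members did not share a library order. Tcf4+/- replicate 1 was the highest library for 10 members, Col8a2 replicate 1 for 8, Tcf4+/- replicate 3 for 7 and Col8a2 replicate 2 for 6. Tcf4+/- replicate 2 was the lowest for 12 members and Tcf4+/- replicate 3 for 7. The mean log2 CPM over the 35 genes ran 6.49, 6.35 and 6.33 across the Col8a2 replicates, against 6.39, 6.15 and 6.27 across the Tcf4+/- replicates, where Tcf4+/- replicate 1 lay inside the Col8a2 range. The median log2 fold change by role was -0.34 for the target enzymes and transporters, -0.29 for NADPH supply, -0.20 for the thioredoxin system, -0.07 for glutathione, 0.01 for the sensors, 0.06 for the ferritins with metallothioneins, 0.10 for the repair genes and 0.11 for the peroxiredoxins.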

How the data were processed

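The RNA-seq data, from mouse corneal endothelial cells, comprise 3 libraries in each of 2 genotype groups, grouped and numbered by their titles. Per the labels' protocols, SMART-Seq HT gave full-length cDNA and Nextera XT the libraries, with no mention of strand. The submitters' processing notes name build GRCm39 with STAR, RSEM, DESeq2, fastp 0.23.2 and FastQC 0.12.1. The annotation release is not given here. The authors' files hold RSEM-style expected counts with no depth scaling, 9.97% of them not whole. The authors also deposited TPM, which divides by effective length. Length minus effective length, in bases as deposited, was 211 to 241 in 4 libraries and 155 and 150 in Tcf4+/- replicates 2 and 3. Symbols of GENCODE M21 were matched by identifier to 51884 of 57180 genes. As the build differs, coordinates are given only for RefSeq promoter windows of GRCm38.p6.

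Expected counts were rounded, filtered with filterByExpr, scaled by TMM (factors 0.973 to 1.06) and tested over all genes with edgeR 4.0.16 in R 4.3.3 (quasi-likelihood, robust, group as the only term, Benjamini-Hochberg, threshold 0.05). Standard errors are the log2 fold change over the root of the F statistic. The median standard error was 0.54 over all genes and 0.36 over members, and intervals cover the spread between libraries. The script was tested on simulated counts. Ratios of TPM were compared by exact permutation, which with 3 libraries per group cannot reach the threshold of 0.05. Alternatives were DESeq2 1.42.0, its size factors, 2 filters, limma 3.58.1 (voom, and log2(TPM + 1)), the replicate block, leaving out libraries and a lens covariate. The members, lists and tests were chosen with earlier results of these data known. All members are reported. By rule, each role's most abundant gene and that of smallest p are given by library, and from each related list the most abundant gene and up to 2 of smallest p with a mean of at least 1 TPM. Other members shown by library were chosen after their values were seen. Every pair of libraries differed by more than sampling noise. Reads were not kept by strand as far as stated, and G6pdx, Gss, Prdx2 and Prdx5 overlap a coding gene on the other strand. Not every overlap is reported here.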

Additional observations from a re-analysis of the deposited data

How the results depend on the processing

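No member was called under any of the 15 alternatives, and of 525 member values 445 kept their direction, with 9 members keeping it throughout. The number of all genes called was 107 with DESeq2 and 0 to 4 when libraries were left out singly (4 without Col8a2 replicate 3), against 0. Every other member changed sign under at least 1 of them. With the lens covariate the log2 fold changes became 0.026 for Keap1, 0.10 for Nqo1, 0.003 for Srxn1, 0.013 for Abcc1, 0.12 for Gclm, 0.032 for Gsr, 0.24 for Glrx, -0.044 for Prdx1 and Fth1, -0.06 for Prdx5, -0.26 for Mt1, -0.30 for Mt2, -0.10 for Park7 and -0.61 for Msrb1. Without Tcf4+/- replicates 2 and 3, which leaves a lone library assumed to vary like the Col8a2 group, they were 0.31 for Nqo1, 0.12 for Gclm, 0.18 for Gsr, 0.79 for Glrx, 0.15 for Me1, 0.11 for Txnrd2, 0.038 for Prdx2, -0.32 for Prdx4, 0.30 for Prdx6, -0.016 for Fth1, -0.20 for Mt1, -0.37 for Mt2, -0.79 for Msrb1 and 0.16 for Oxr1. On log2(TPM + 1) they were -0.085 for Gss, -0.12 for G6pdx, -0.18 for Prdx1, -0.065 for Prdx3, -0.22 for Fth1, -0.35 for Mt1, -0.17 for Mt2, -0.15 for Park7, -0.27 for Msra and -0.21 for Msrb1. They were -0.005 for Mafg with no filter, 0.013 for Gsr and 0.012 for Glrx with at least 5 CPM, and -0.007 for Msra and -0.056 for Msrb1 with voom. The cause of these changes was not tested. Leaving out 1 library gave ranges of -0.36 to 0.35 for Mafg, -0.42 to 0.051 for Nqo1, -0.81 to 0.17 for Abcc1, -0.24 to 0.021 for Gclm, -0.14 to 0.068 for Gsr, -0.72 to 0.37 for Glrx, -0.26 to 0.43 for G6pdx, -0.85 to 0.036 for Txn1, -0.39 to 0.007 for Txnrd2, -0.11 to 0.27 for Prdx1, -0.24 to 0.038 for Prdx2, -0.03 to 0.42 for Prdx5, -0.31 to 0.13 for Prdx6, -0.14 to 0.26 for Fth1, -0.24 to 0.23 for Mt1, -0.15 to 0.51 for Mt2, -0.10 to 0.33 for Park7, -0.15 to 0.31 for Msra and -0.41 to 0.54 for Msrb1.

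The replicate block called 0 genes and reversed no member. Same-numbered libraries of the groups had correlated deviations of -0.02, 0.14 and -0.02, so the numbers were not taken to pair them. The 4 ratios kept their direction under every alternative tried, and that of Nfe2l2 to Keap1 lay between 0.62 and 0.80 on the log2 scale. Slc7a11, at 45 counts in its lowest library, is the member that depth limits most.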
